A study of Mus musculus with 6 samples.

Results

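The Hox genes encode homeodomain transcription factors and were examined here in the epithelium of the mouse esophagus with and without p63. Every gene whose symbol is Hoxa, Hoxb, Hoxc or Hoxd followed by a number was taken from the count table, which gave 39 genes of 23284 rows. Of these, 11 belong to the HoxA cluster, 10 to HoxB, 9 to HoxC and 9 to HoxD. The members were ordered by cluster and by paralog number, and the question was where expression ends along each cluster and whether that end or the levels before it differ without p63.

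RNA was sequenced from esophageal epithelium isolated from E12.5 embryos. The mutant group, p63KO, held 3 libraries from embryos homozygous for Trp63-CreERT2, an allele that places the inducible Cre recombinase CreERT2 in the Trp63 locus. The control group held 3 libraries from littermates. Their titles name them WT, and the labels otherwise give their genotype only as control. Trp63 encodes p63, the transcription factor that marks and maintains the basal layer of stratified epithelia. The labels do not say how many embryos each library holds or whether libraries came from separate litters, so the p-values measure the spread between these libraries.

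Mammalian Hox genes lie in 4 clusters, and genes with the same number in different clusters (a paralog group) descend from 1 ancestral gene. Within a cluster, low-numbered genes at the 3′ end are expressed from more anterior positions of the embryo and high-numbered genes at the 5′ end only further back, so the set of Hox genes that a tissue expresses reflects its position along the body axis. Retinoic acid opens and activates the 3′ end, Cdx factors act on the middle of the clusters, and Polycomb and trithorax complexes hold genes off or on. In the foregut the middle paralog groups are known for roles in the trachea, lung and gut tube, Hoxa5 foremost.

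The start-site sequences of the genes on either side of the end of expression are shown for the HoxA cluster, together with the HoxB gene that rose by the smallest adjusted p and a HoxB gene beyond the end that differed in counts. Each is the stretch before the gene's start, up to 250 bases, read 5′ to 3′ on the gene's own strand from RefSeq's GRCm38.p6 annotation, which is not the build the authors used. RefSeq promoter entries were at hand for 22 of the 39 genes. Capitals mark matches on either strand to the TATA box TATAAA, the Cdx-type motif TTTATG or the retinoic acid receptor half-site AGGTCA, and the Hoxa6 sequence is shortened to 200 bases because the remaining bases are exonic.
Hoxa5: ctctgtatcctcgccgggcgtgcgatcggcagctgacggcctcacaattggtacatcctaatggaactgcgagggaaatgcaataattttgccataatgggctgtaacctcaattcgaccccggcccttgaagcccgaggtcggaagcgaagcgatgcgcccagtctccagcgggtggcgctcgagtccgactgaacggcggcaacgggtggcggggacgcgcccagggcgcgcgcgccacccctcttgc
Hoxa6: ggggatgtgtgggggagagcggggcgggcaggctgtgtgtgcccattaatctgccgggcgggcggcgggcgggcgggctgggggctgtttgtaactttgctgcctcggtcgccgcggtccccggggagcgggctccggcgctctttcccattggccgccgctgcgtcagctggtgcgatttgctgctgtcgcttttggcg
Hoxb4: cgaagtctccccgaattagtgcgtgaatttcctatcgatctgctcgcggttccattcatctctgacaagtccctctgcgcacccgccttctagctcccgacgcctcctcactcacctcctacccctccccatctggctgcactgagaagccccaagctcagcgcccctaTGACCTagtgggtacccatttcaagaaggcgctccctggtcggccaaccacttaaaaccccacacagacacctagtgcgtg
Hoxb8: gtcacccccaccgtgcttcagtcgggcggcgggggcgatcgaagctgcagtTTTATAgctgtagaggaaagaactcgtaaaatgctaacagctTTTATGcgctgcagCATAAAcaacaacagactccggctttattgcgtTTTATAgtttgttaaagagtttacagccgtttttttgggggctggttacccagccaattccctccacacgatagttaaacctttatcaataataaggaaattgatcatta
The windows are chr6:52204588-52204837 on the minus strand for Hoxa5, chr6:52208723-52208922 on the minus strand for Hoxa6, chr11:96318017-96318266 on the plus strand for Hoxb4 and chr11:96281655-96281904 on the plus strand for Hoxb8. The Hoxa5 and Hoxa6 windows, from the last expressed and the first silent gene of HoxA, hold none of these 3 motifs. The Hoxb4 window holds AGGTCA once, as TGACCT. The Hoxb8 window holds TATAAA in 2 places, both as TTTATA, and TTTATG in 2 places, once as CATAAA. Over all 32851 promoter entries of the same length, TATAAA occurred in 12.37%, TTTATG in 10.76% and AGGTCA in 14.02%. Also searched were the Hox-Pbx motif TGATTNAT, present in 2.825% of entries, and the core of the p53-family site that p63 binds, present in 0.4901%, and neither is in the 4 windows shown. These matches describe the letters only and were not set against any binding data.

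Libraries held 13335328 to 20093838 counts, so that 3 counts corresponded to 0.153 to 0.223 CPM (counts per 1000000 counts, scaled by TMM here and in all values that follow). Trp63 itself was at 583.9, 674.1 and 550.6 CPM in the controls and at 76.7, 62.2 and 75.5 CPM in p63KO, as labelled. Epithelial markers were high throughout, with Epcam at 846.3 to 858.7 CPM in controls and 943.9 to 953.2 CPM in p63KO. Control replicate 3 stood apart in ways that bear on Hox genes. Cdx2, the intestinal regulator, had 919 counts there (54.1 CPM) against 0 to 2 counts in each other library. Pdx1, a regulator of pancreas and duodenum, had 42 counts against 0. Among the listed retinoid and Hox regulator genes, Cyp26b1 was at 7.77 CPM there against 0.483 and 0.511 CPM in the other controls. Zbtb16 was at 8.6 CPM against 1.3 and 1.2 CPM. Hox results that depend on this library are given with and without it.

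Of the 39 Hox genes, 14 had enough counts to be tested with edgeR's quasi-likelihood test, and 10 of them were higher in p63KO at an adjusted p under 0.05. Over all 13849 genes tested, 15.3% were called higher and 14.3% lower. No Hox gene was called lower by edgeR or any other tool run, and none was lower at an unadjusted p under 0.05, while 11 were higher at that level. The median log2 fold change of the 14 tested Hox genes was 0.74, beside -0.01 over all tested genes. In 10 of the 14 the 3 p63KO libraries all lay above the 3 controls, a pattern that 21.8% of all tested genes showed. The members that were tested passed a minimum count in at least 1 group, so these counts do not describe all 39 genes. Hoxb6 passed it only through the p63KO libraries, where it was high.

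Summed over all members, Hox expression reached 467.2, 470.0 and 368.3 CPM in controls and 793.6, 744.0 and 658.7 CPM in p63KO. The p63KO libraries were thus all above the controls, at 1.68 times their mean (435.2 ± 57.9 against 732.1 ± 68.3 CPM, SD, n = 3 each). Such a sum compares RNA in bulk tissue, in which more cells with Hox expression and more RNA per cell cannot be told apart.

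**Figure D1:**
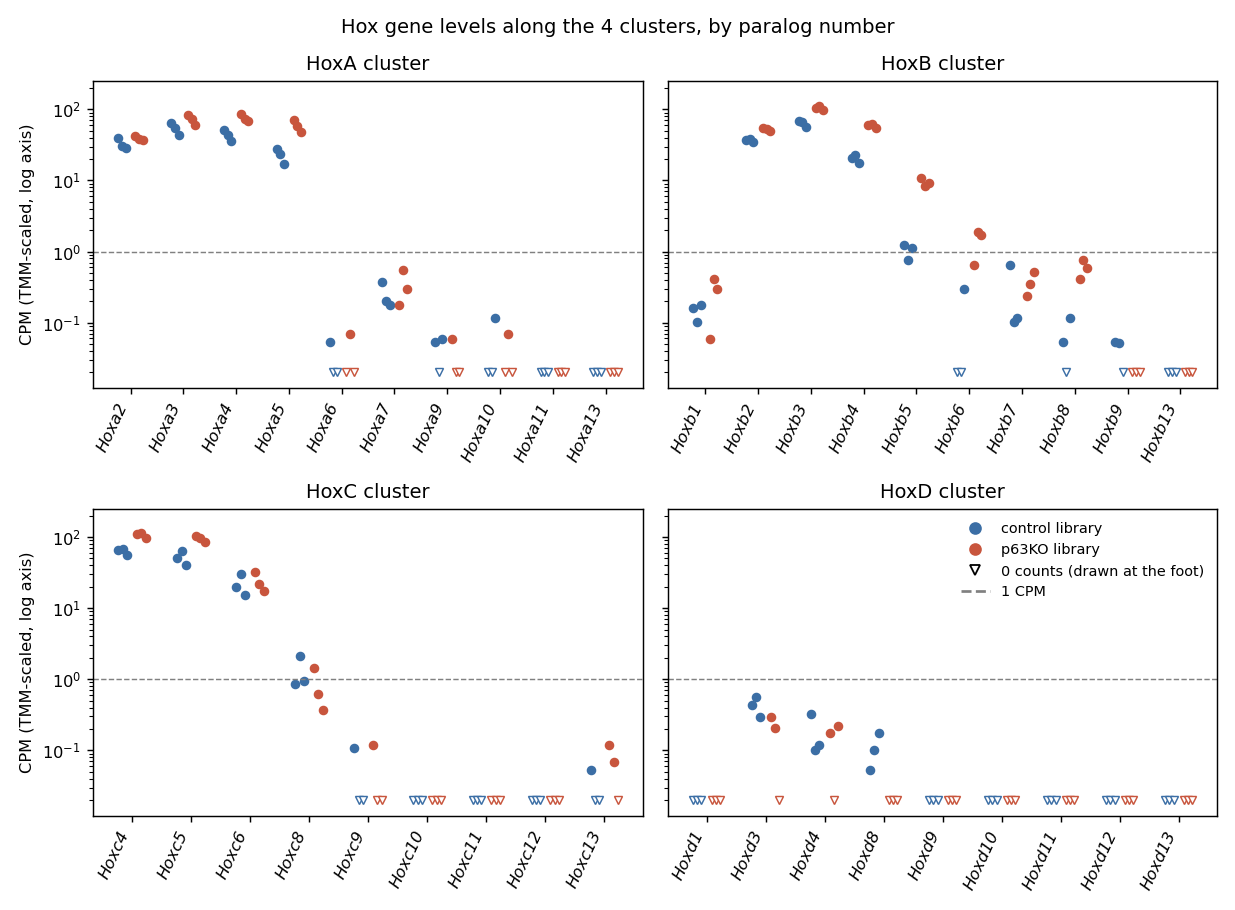
CPM of Hox genes in each library (log axis), with one panel per cluster and genes ordered by paralog number. Filled points are libraries with a count, open triangles at the foot are libraries with 0 counts, and the dashed line marks 1 CPM. HoxA stops after Hoxa5 in both groups, HoxB falls off over Hoxb5 and Hoxb6, HoxC falls off at Hoxc8, which is above 1 CPM in 1 library of each group, and no HoxD gene reaches 1 CPM.

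A cluster's end was set at the highest paralog number with at least 1 CPM in every library of a group. By this measure HoxA ended at Hoxa5 in both groups, HoxB at Hoxb4 in controls and at Hoxb5 in p63KO, and HoxC at Hoxc6 in both, while no HoxD gene reached 1 CPM in any library. The number of Hox genes expressed was 11 in controls and 12 in p63KO, but 13 in each group at 0.5 CPM and also by a group mean of 1 CPM. The HoxA end did not move with the level chosen (0.5, 1 or 5 CPM). The HoxB end was Hoxb5 in controls and Hoxb6 in p63KO at 0.5 CPM, and Hoxb4 and Hoxb5 at 5 CPM. At 0.5 CPM the HoxC end was Hoxc8 in controls and Hoxc6 in p63KO. The HoxB end also rests on single libraries, since it was Hoxb5 in controls without control replicate 2 and Hoxb6 in p63KO without p63KO replicate 1.

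Beyond these ends the posterior clusters were almost silent. The 16 members of paralog groups 9 to 13 had 16 counts together, of 100252996 counts over all libraries, while groups 1 to 4 had 42958 and groups 5 to 8 had 14242. In 12 members no library had a count: Hoxa11, Hoxa13, Hoxb13, Hoxc10, Hoxc11, Hoxc12, Hoxd1 and the 5 HoxD genes from Hoxd9 to Hoxd13. A count of 0 over a whole group allows a level of up to 0.0544 CPM in controls and 0.0669 CPM in p63KO, which covers counting error only.

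HoxA was expressed up to Hoxa5 and then stopped. Hoxa5 was the member that differed most, and it rose in p63KO while the gene beyond it stayed at the floor. Hoxa5, which patterns the trachea and lung, was at 27.9, 23.7 and 17.2 CPM in controls and 71.1, 58.6 and 48.3 CPM in p63KO. All p63KO libraries were above all controls, a log2 fold change of 1.37 (SE 0.18, edgeR adjusted p = 4.6e-04). Hoxa6 had 1 count in the controls and 1 in p63KO, so that Hoxa5 was 593 times Hoxa6 per kilobase of transcript in controls (95% interval from counting 106.3 to 23449). Hoxa7, the next gene, had 14 counts in controls and 15 in p63KO, a ratio of 1.32 after scaling (exact 95% interval 0.593 to 2.95). The step down after Hoxa5 was thus as deep as the counts can resolve in both groups.

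Hoxa2, Hoxa3 and Hoxa4 had smaller fold changes than Hoxa5. Hoxa4 was at 50.5, 43.2 and 36.2 CPM in controls and 85.5, 73.2 and 67.5 CPM in p63KO, again without overlap, and rose by 0.80 (SE 0.13, adjusted p = 0.0013 in edgeR). Hoxa2, the selector gene of the second pharyngeal arch, did not pass the test, with 39.5, 30.7 and 28.4 CPM in controls against 42.8, 37.8 and 37.0 CPM in p63KO (a log2 difference of 0.25, SE 0.13, with an edgeR adjusted p of 0.18). The groups overlapped because control replicate 1 lay above 2 of the p63KO libraries, and without it the value was 0.40 with an edgeR adjusted p of 0.026. Hoxa2 did not pass when any other library was left out. Its value then ran from 0.16 without control replicate 3 (edgeR adjusted p = 0.41) to 0.30 without p63KO replicate 2 (edgeR adjusted p = 0.18).

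Hoxa3, which is needed for thymus and parathyroid, was at 63.6, 55.2 and 43.7 CPM in controls and 83.7, 72.6 and 60.0 CPM in p63KO. Its groups overlapped and its log2 fold change of 0.41 (SE 0.15) had an edgeR adjusted p of 0.068. The call for Hoxa3 depends on the method and the libraries. DESeq2 gave an adjusted p of 0.019, and edgeR gave 0.034 without control replicate 1 and 0.039 without p63KO replicate 3. Without control replicate 3 the value fell to 0.28 (edgeR adjusted p = 0.15), and without p63KO replicate 1 to 0.29 (edgeR adjusted p = 0.23). Leaving out control replicate 2 or p63KO replicate 2 gave 0.43 (edgeR adjusted p = 0.11 each). For Hoxa3, Hoxa4 and Hoxa5 alike, replicate 1 was the highest and replicate 3 the lowest library of each group, so deviations were shared between neighbouring genes, which are not independent measurements.

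HoxB showed the strongest change, and over its 5 tested genes the change grew with paralog number. All 5 tested genes, Hoxb2 to Hoxb6, were higher in p63KO, with log2 fold changes of 0.53, 0.70, 1.53, 3.17 and 3.82 in that order. The values of Hoxb5 and Hoxb6 differed by less than the standard error of Hoxb6, and the differences between neighbouring genes were not tested. Hoxb2, a hindbrain and facial nerve patterning gene, was at 37.2, 37.7 and 34.2 CPM in controls and 55.4, 53.1 and 49.4 CPM in p63KO (SE of the log2 fold change 0.08, edgeR adjusted p = 7.7e-04). Hoxb3, the most counted HoxB gene, was at 68.9, 67.4 and 56.5 CPM in controls and 104.2, 109.7 and 98.9 CPM in p63KO (SE 0.09, edgeR adjusted p = 2.7e-04). For both genes every p63KO library was above every control.

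Hoxb4, best known for expanding blood stem cells, was at 20.8, 22.9 and 17.7 CPM in controls and 60.3, 61.6 and 55.2 CPM in p63KO. The groups were far apart relative to their spread, with 2.88 times the control level (log2 SE 0.10, edgeR adjusted p = 7.0e-06). Hoxb5, which acts in enteric neural crest and in lung branching, was at 1.24, 0.766 and 1.12 CPM in controls and 10.8, 8.24 and 9.06 CPM in p63KO. This 8.98-fold difference (log2 SE 0.25, edgeR adjusted p = 1.6e-05) moved the gene from the edge of the 1 CPM level to well above it. Of all tested genes, 1.67% had a log2 fold change above that of Hoxb5.

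Hoxb6 had 0, 0 and 5 counts in the controls and 11, 27 and 23 in p63KO, that is 0, 0 and 0.294 CPM against 0.649, 1.87 and 1.71 CPM. The groups did not overlap, and the log2 fold change of 3.82 (SE 0.91) had an edgeR adjusted p of 0.012. Hoxb6 met the count minimum only through the p63KO libraries, where it was high, so its call and lack of overlap add no separate support. Under the filter of 1 CPM in 3 libraries it was not tested. Its 5 control counts all lay in control replicate 3, the library with Cdx2. Without that library the controls held 0 counts, and p63KO was at least 17.3-fold higher than the 3 counts that the 2 remaining libraries allow. The size of the Hoxb6 change is therefore not fixed by these data, while its direction was the same in each of the 12 alternatives that tested it.

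Past Hoxb6 the counts were too few for the test. Hoxb7 had 16 counts in each group, with 12 of the control counts in replicate 1. The Hoxb7 ratio after scaling was 1.23 (exact 95% interval 0.576 to 2.63, counting error only). That pooled ratio rests on control replicate 1, since the counts were 12, 2 and 2 in controls and 4, 5 and 7 in p63KO. Whether the climb over the tested genes continued at Hoxb7 is therefore not settled. Hoxb8, a gene of myeloid cells and of posterior mesoderm, had 1, 0 and 2 counts in controls and 7, 11 and 8 in p63KO, so the groups did not overlap even though all libraries stayed under 1 CPM. Its ratio after scaling was 10.7, with an exact 95% interval of 3.27 to 55.0 that covers counting error only. With no filter on low counts the edgeR log2 fold change of Hoxb8 was 3.25 (SE 0.85, adjusted p = 0.017), and DESeq2 gave 3.41 (SE 1.29, adjusted p = 0.034). Hoxb9 had 2 counts in controls and 0 in p63KO, and Hoxb1, at the 3′ end, had 8 and 11. Hoxb1 was thus low in a cluster whose next gene was high: Hoxb2 was 322 times Hoxb1 per kilobase in controls (95% interval 163 to 747) and 276 times in p63KO (154 to 554).

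**Figure D2:**
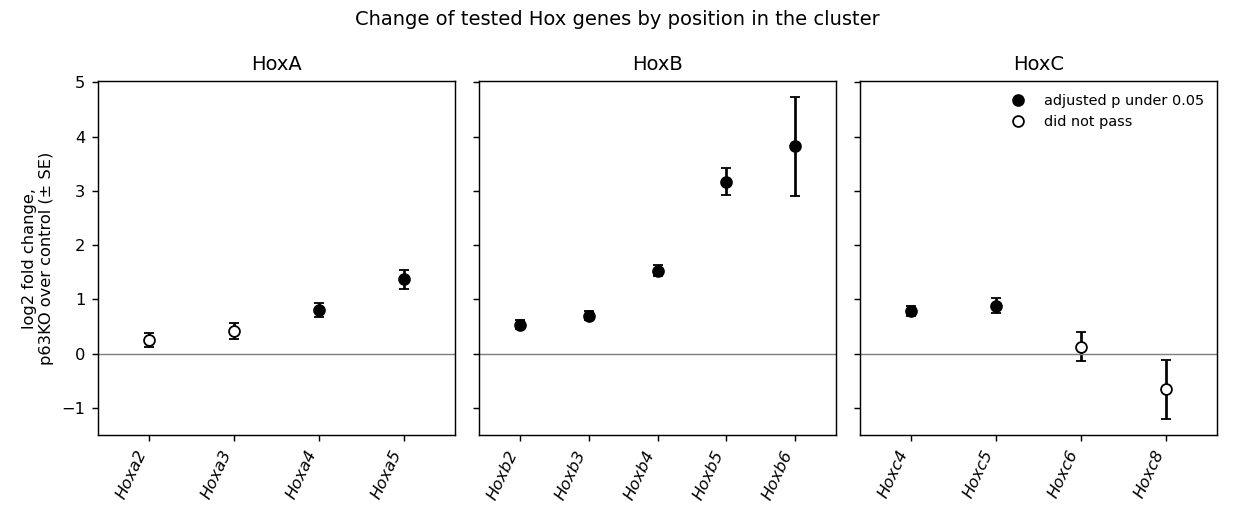
Log2 fold change of p63KO over control for 13 of the 14 tested Hox genes, by cluster and paralog number, with standard errors as bars. Filled points passed an adjusted p under 0.05 and open points did not. In HoxB the values climb from 0.53 at Hoxb2 to 3.82 at Hoxb6, in HoxA the largest is 1.37 at Hoxa5, and in HoxC they fall from 0.88 at Hoxc5 to -0.66 at Hoxc8.

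HoxC was strongly expressed from its first gene, Hoxc4, and faded at Hoxc8. Hoxc4 was at 64.9, 68.1 and 55.3 CPM in controls and 110.9, 114.5 and 98.0 CPM in p63KO, a rise of 0.78 (SE 0.09, edgeR adjusted p = 2.3e-04). Hoxc5 was at 50.4, 63.8 and 40.9 CPM in controls and 103.6, 96.3 and 86.5 CPM in p63KO, a rise of 0.88 (SE 0.14, edgeR adjusted p = 0.0014). Neither gene had overlapping groups. Both are genes of the neck region of the body axis.

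Hoxc6, which patterns the level of the forelimb and upper thorax, did not follow them. It was at 20.0, 30.1 and 15.4 CPM in controls and 32.6, 21.5 and 17.3 CPM in p63KO, so the libraries of the groups were intermixed. The log2 fold change of 0.13 (SE 0.27, edgeR adjusted p = 0.78) turned to -0.07 without control replicate 3 and -0.17 without p63KO replicate 1, so Hoxc6 has no direction here. Hoxc8, which acts in ribs and brachial motor neurons, was at 0.859, 2.09 and 0.942 CPM in controls and 1.42, 0.623 and 0.371 CPM in p63KO. Its groups overlapped as well (a log2 difference of -0.66, SE 0.55, edgeR adjusted p = 0.42), and 1 library of each group, control replicate 2 and p63KO replicate 1, was above 1 CPM. Hoxc9 had 2 counts in each group and Hoxc13 had 1 in controls and 3 in p63KO.

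HoxD was all but absent. Its 9 genes together made 0.806, 0.766 and 0.589 CPM in controls and 0.472, 0.208 and 0.223 CPM in p63KO, so that the p63KO libraries were lower. Most of this was Hoxd3, with 8, 11 and 5 counts in controls and 5, 3 and 0 in p63KO, a scaled ratio of 0.410 (exact 95% interval 0.159 to 0.944, counting error only). Hoxd4 had 10 and 6 counts, and Hoxd8 had 6 in controls and 0 in p63KO, which is at least 1.63-fold lower against the 3 counts that a whole group at 0 allows. None of these genes passed the count minimum, and Hoxd3 and Hoxd4 share exon bases on the same strand, so reads could be divided between them in either way.

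By paralog group, all tested members of groups 4 and 5 rose. Hoxa4, Hoxb4 and Hoxc4 rose by 0.80, 1.53 and 0.78 on the log2 scale, and Hoxa5, Hoxb5 and Hoxc5 by 1.37, 3.17 and 0.88. In each of these groups the HoxB gene had the largest value. Of the 8 tested members in groups 1 to 4, 6 were called higher, beside 15.3% of all tested genes. Another 4 members of these groups were not tested. Group 6 was divided between clusters: Hoxb6 rose, Hoxc6 did not pass, and Hoxa6 was at 1 count per group.

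Ratios between genes of 1 cluster within 1 library do not depend on the library's scaling, and 8 such ratios were formed after the values had been seen. Hoxb4 counts were 30.2%, 34.0% and 31.4% of Hoxb3 counts in the control libraries and 57.9%, 56.2% and 55.8% in p63KO. Hoxb5 counts were 5.94%, 3.35% and 6.31% of Hoxb4 counts in controls and 17.9%, 13.4% and 16.4% in p63KO. Both ratios were higher in every p63KO library. Their direction follows from the fold changes for which they were chosen, so they describe the size of the shift and are no separate evidence of it.

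The same held in HoxA, where Hoxa5 counts were 43.8%, 42.8% and 39.4% of Hoxa3 counts in controls and 84.9%, 80.7% and 80.5% in p63KO. In HoxC 1 ratio went the other way: Hoxc6 counts were 39.7%, 47.2% and 37.7% of Hoxc5 counts in controls and 31.5%, 22.4% and 20.0% in p63KO, lower in every p63KO library. Hoxc5 rose by 0.88 while Hoxc6 did not pass (0.13, SE 0.27), so the lower ratio does not show a fall of Hoxc6. In all, 5 ratios were higher without overlap, 1 was lower without overlap and 2 overlapped (Hoxc5 over Hoxc4 and Hoxc8 over Hoxc6). With 3 libraries against 3, an exact two-sided permutation test cannot go below p = 0.1, which each of the 6 reached.

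**Figure D3:**
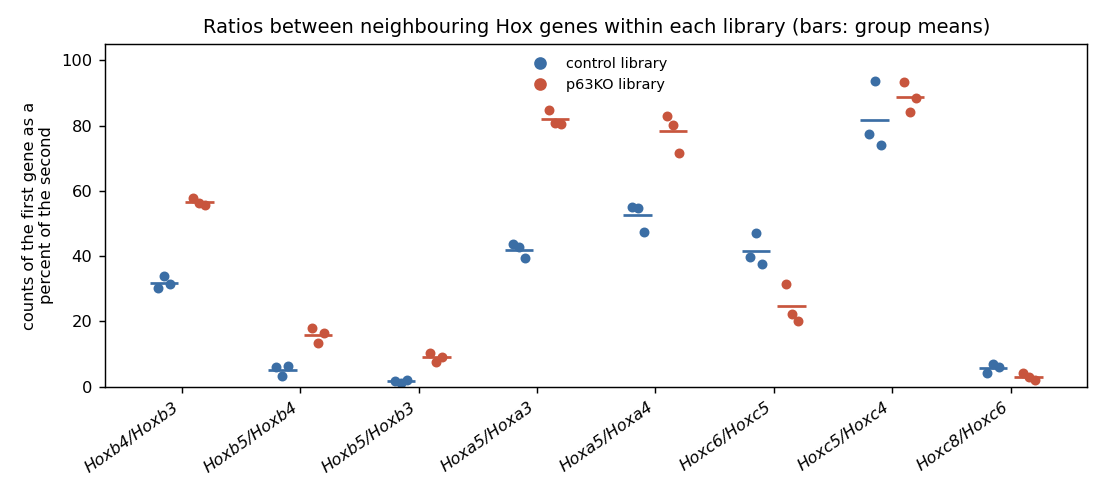
Counts of 1 Hox gene as a percent of those of another gene of its cluster, in each library, with bars at the group means. Hoxb4 over Hoxb3 sits at 30.2% to 34.0% in controls and 55.8% to 57.9% in p63KO, and Hoxc6 over Hoxc5 is the ratio that is lower in every p63KO library.

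Levels of different genes were compared per kilobase of the principal GENCODE transcript. In controls Hoxc4 (31.7 ± 3.37 CPM per kilobase, SD, n = 3) and Hoxa4 (27.2 ± 4.51) headed the order and overlapped each other, so that paralog group 4 held the 2 highest genes. Hoxb2, Hoxa3, Hoxb3, Hoxa2 and Hoxc5 followed at means of 17.7 to 22.3 with overlapping libraries, then Hoxc6 (13.8 ± 4.75) and Hoxa5 (12.2 ± 2.87), which overlapped each other. Hoxb4 (7.98 ± 1.01) lay below Hoxa5 in every library. A much deeper step came below Hoxb4, since Hoxc8 and Hoxb5 were at 0.695 ± 0.370 and 0.549 ± 0.129 CPM per kilobase.

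In p63KO Hoxc4 (54.4 ± 4.39 CPM per kilobase) and Hoxa4 (47.3 ± 5.78) again led. Hoxa5 moved from the ninth place to the sixth (31.6 ± 6.08) and Hoxb4 from the eleventh to the eighth (23.0 ± 1.33). Hoxb5, at 4.94 ± 0.689, stood alone between the 11 genes above it and Hoxb6 and Hoxc8 below it. The step from Hoxb4 down to Hoxb5 was 14.7 times in controls (95% interval from counting 11.3 to 19.6) and 4.62 times in p63KO (4.17 to 5.13). That from Hoxc6 down to Hoxc8 was 19.8 times (15.6 to 25.4) and 34.1 times (24.7 to 48.5). These intervals come from pooled counts and leave out the spread between libraries. Per library, Hoxc8 counts were 4.30%, 6.96% and 6.11% of Hoxc6 counts in controls and 4.34%, 2.89% and 2.15% in p63KO, so the groups overlapped. The order depends on the transcript chosen for genes with long alternative exons: with all annotated exons, Hoxa3 in controls would be at 9.01 in place of 20.9 CPM per kilobase and Hoxb2 at 10.4 in place of 22.3.

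Some of these genes overlap other transcripts, and the sources used here do not state whether strand was used in counting. Of the genes called higher, Hoxb3 has 2250 and Hoxb2 has 953 exon bases antisense to Hoxb3os, Hoxb5 has 100 antisense to Hoxb5os, Hoxa4 has 255 antisense to a non-coding gene, and Hoxc5 shares 166 bases with Hoxc10 on the same strand. Reads from these bases cannot be assigned with certainty. Hoxa5, Hoxb4, Hoxb6 and Hoxc4 share no exon base with another annotated gene.

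Hox proteins bind DNA with TALE homeodomain partners of the Pbx, Meis and Pknox (Prep) families. All 9 partner genes were tested, and 4 were called higher and 3 lower, beside 15.3% and 14.3% of all tested genes. The median log2 fold change of the partner genes was 0.22. Pbx4 rose from 1.74 ± 0.458 to 5.12 ± 1.79 CPM (a log2 difference of 1.56, SE 0.32, edgeR adjusted p = 0.0057). The 3 Meis genes rose together by smaller amounts, Meis1 by 0.36, Meis2 by 0.57 and Meis3 by 0.43. Pbx3 fell from 45.1 ± 4.72 to 29.2 ± 1.77 CPM (a log2 difference of -0.63, SE 0.10, edgeR adjusted p = 0.0011) and Pknox2 from 9.35 ± 2.40 to 3.60 ± 1.53 CPM (a log2 difference of -1.38).

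The 8 ParaHox and Evx genes, the relatives of the Hox clusters that include the Cdx genes, were not among the genes tested, since none reached the count minimum in enough libraries. With no filter on low counts 5 of them were tested, and Cdx2 was called lower, on the counts of 1 control library. Of the 2 that DESeq2 gave an adjusted p, none was called. Outside control replicate 3 none had more than 3 counts in any library. In control replicate 3 Cdx2, Pdx1 and Evx1 stood at 54.1, 2.47 and 1.35 CPM. Of the Hox genes past the ends, Hoxb6 had its 5 control counts in that library, while Hoxa7 (3 counts), Hoxb7 (2 counts) and Hoxc8 (16 counts) had no more there than in the other controls. Hoxb8, Hoxa10 and Hoxd8 had their highest control count there, at 2, 2 and 3 counts.

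Of the 15 tested genes of the retinoic acid pathway, 2 were higher and 5 lower, beside 15.3% and 14.3% of all tested genes. Their median log2 fold change was -0.13. Rarg, a retinoic acid receptor, fell from 242.9 ± 32.8 to 86.3 ± 8.51 CPM (a log2 difference of -1.49, SE 0.11, edgeR adjusted p = 1e-05), and its partner receptor Rxra fell from 222.8 ± 15.2 to 115.7 ± 7.43 CPM (-0.95, SE 0.07). Cyp26a1, which degrades retinoic acid, was at 28.3, 18.4 and 17.1 CPM in controls and 9.80, 8.17 and 9.06 CPM in p63KO, a fall of all p63KO libraries below all controls (-1.24, SE 0.20, edgeR adjusted p = 0.0014). Dhrs3, which reduces retinaldehyde back to retinol, fell by 0.51 and Aldh1a1, which makes retinoic acid, fell by 0.29. Crabp2, which carries retinoic acid, rose by 0.40. With fewer libraries the calls of Aldh1a1 and Crabp2 were lost at about the same size: Aldh1a1 was at -0.25 to -0.28 and did not pass when control replicate 1 or 2 or a p63KO library other than replicate 1 was left out, and Crabp2 was at 0.38 to 0.39 and did not pass when p63KO replicate 1 or 3 was. Rarb, a direct retinoic acid target, was at 112.2 to 118.1 CPM in controls and 106.0 to 117.1 CPM in p63KO (a log2 difference of -0.06, SE 0.06, edgeR adjusted p = 0.51).

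**Figure D4:**
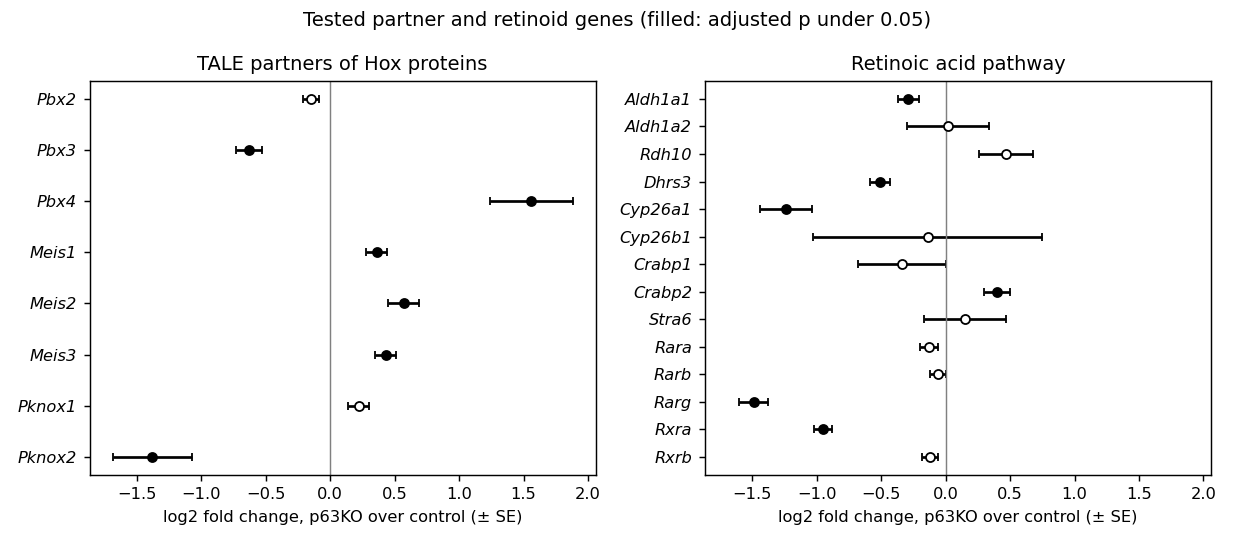
Log2 fold change of p63KO over control, with standard errors, for 8 tested TALE partner genes (left) and 14 tested retinoic acid pathway genes (right). Filled points passed an adjusted p under 0.05 and open points did not. Pbx4 at 1.56 lies furthest right, and Pknox2 at -1.38 and Rarg at -1.49 furthest left.

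Of 24 tested chromatin and transcription regulators of the Hox clusters, 1 was higher and 2 lower, beside 15.3% and 14.3% of all tested genes, with a median log2 fold change of -0.05. Phc2, a subunit of Polycomb complex 1, fell by 0.32 (SE 0.07, edgeR adjusted p = 0.0068). Jarid2, a cofactor of Polycomb complex 2, was called higher at 0.24 with an edgeR adjusted p of 0.043, lost, at 0.18 to 0.27, on leaving out control replicate 1, control replicate 2, p63KO replicate 2 or p63KO replicate 3. The Polycomb methyltransferase genes Ezh2 (-0.05, SE 0.07) and Ezh1 (-0.29, SE 0.10, edgeR adjusted p = 0.052) did not pass.

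Of the 18 tested genes that lie beside the clusters, 4 were higher and 1 lower, beside 15.3% and 14.3% of all tested genes. Their median was 0.12. Skap1, beside HoxB, rose from 0.849 ± 0.0756 to 2.96 ± 0.635 CPM (a log2 difference of 1.79, SE 0.30, edgeR adjusted p = 0.0016). Beside HoxA, Snx10 rose from 18.3 ± 1.04 to 58.8 ± 8.63 CPM (1.68, SE 0.11, edgeR adjusted p = 6.7e-06), whereas Skap2, which lies nearer to the cluster, rose by 0.29. Nfe2l1 rose by 0.21 and Atf2 fell by 0.21. The Nfe2l1 call was lost at 0.19 without control replicate 1 and at 0.21 without p63KO replicate 3, and the Atf2 call at -0.17 to -0.23 when any library other than p63KO replicate 2 was left out. Of the non-coding genes within the clusters, 8 were in the table, and the 1 tested, 2700086A05Rik, did not pass (log2 fold change 0.40, SE 0.65, edgeR adjusted p = 0.55).

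Hox genes are also expressed in cells other than epithelium, and markers of such cells moved with the groups. The 21 mesenchyme markers summed to 872.6 to 1047.2 CPM in controls and 2083.0 to 2542.0 CPM in p63KO, with none at 0. But 5 of 19 tested were higher and 8 lower (median -0.92), beside 15.3% and 14.3% of all tested genes. Decorin (Dcn), at 113.5 to 211.1 against 1052.5 to 1342.4 CPM, and Fn1, at 212.1 to 363.5 against 503.6 to 743.4 CPM, were the largest terms of the p63KO sums. Tbx18 (3.26), Meox1 (1.85) and Twist1 (1.33) also rose, while 8 others fell, among them the fibroblast genes Col1a1 (-1.08) and Pdgfra (-1.05). The 17 enteric neuron and neural crest markers summed to 169.4 to 188.4 against 590.6 to 675.4 CPM, with none at 0. There Ret rose (4.84), while the crest gene Sox10 had a value of -1.34 that did not pass.

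The 10 neural tube markers summed to 0.0511 to 0.824 CPM in controls and 14.2 to 18.2 CPM in p63KO. Only 3 were tested, and these rose: Pax3, Sox1 and Nkx2-2, of which Nkx2-2 is also on the neuroendocrine list. The other 7 had 0 to 8 counts per library, with Lhx1 at 0 in every library. All 9 tested neuroendocrine markers rose, from a sum of 4.29 to 6.71 CPM to 308.7 to 386.4 CPM. Of 10 basal epithelium markers 9 fell, from 3619.7 to 4236.2 CPM to 531.4 to 648.9 CPM. Over all tested genes, 15.3% were called higher and 14.3% lower. Endothelial and blood markers overlapped between the groups, muscle markers were lower in p63KO (73.5 to 166.3 against 29.0 to 52.4 CPM), and the mesothelial sum overlapped. That sum was mostly Krt19, a keratin of many epithelia (423.0 to 578.3 against 619.8 to 677.8 CPM), which rose by 0.38, and of the other tested members Msln rose by 2.31, Bnc1 fell by 3.96 and Lrrn4 did not pass. General epithelial markers were at 3792.0 to 3878.6 against 4126.6 to 4180.9 CPM. The part of these changes in the Hox results was not tested.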

How the data were processed

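RNA-seq was made from esophageal epithelium of 3 control and 3 p63KO samples at E12.5. The deposited table holds counts per gene symbol, not normalized, per the file headers and values. The reads were 100 bases long per the labels' protocols, and the submitters' processing notes name bcl2fastq 1.8.4, TopHat2 2.1.0, DESeq2 and the mm9 build. No source used here gives the counting program or its strandedness. Groups come from the labels, and library totals from the table.

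Counts of all genes were filtered with filterByExpr (minimum count 10, minimum total 15), scaled by TMM and tested with edgeR 4.0.16 (R 4.3.3, quasi-likelihood, with no term but group). Benjamini-Hochberg adjustment of p-values ran over 13849 genes, with a threshold of 0.05. The code was tested on simulated data. A Hox gene counted as expressed at 1 CPM in every library of a group. Transcript lengths and exon overlaps came from GENCODE M21 (GRCm38) and promoters from RefSeq, without the 50 bases after the start. Alternatives were DESeq2 1.42.0, limma-voom 3.58.1, other scalings and filters, a replicate term, other expression levels and leaving out each library.

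Named genes were all Hox members and, of each list of related genes, the 4 with the lowest p. Other called members of those lists, the marker genes named, Aldh1a1, Rarb, Ezh2, Cyp26b1 and Zbtb16 were chosen after their values were seen. The members and lists were chosen with earlier results of these data known. One listed regulator, Kmt2b, had no unambiguous symbol in the table and was not used here. Some genes that enter the counts and sums over lists are not reported here one by one.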

Additional observations from a re-analysis of the deposited data

How the results depend on the processing

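The number of Hox genes called higher was 9 to 12 under the alternatives and 10 to 12 with 1 library left out, against 10, and none was called lower under any of them. Each of the 10 calls was kept in every alternative that tested the gene at an adjusted p under 0.05 (Hoxb6 had no test under the filter of 1 CPM in 3 libraries). At an adjusted p under 0.01, 2580 genes were called in all against 4098. Hoxc6 ranged from -0.17 to 0.43 with 1 library left out and was -0.07 without control replicate 3 and -0.17 without p63KO replicate 1. Hoxb6 was 7.54 without control replicate 3, where the controls have no count and the fitted value depends on the prior count, and 3.23 to 4.18 without another library.

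The end of HoxB in controls was paralog 5 at 0.5 CPM and by a mean of 1 CPM, and 4 to 5 with 1 library left out. In p63KO it was 6 at 0.5 CPM and by the mean, and 5 to 6 with 1 library left out. The end of HoxC in controls was 8 at 0.5 CPM and by the mean. Low counts set these limits, since 1 CPM is about 13 to 20 counts per library.

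Same-numbered libraries did not pair throughout: the correlations of their deviations were 0.173, 0.264 and 0.0346, and control replicate 3 matched best with another number. With the replicate block, 4778 genes were called against 4098, and 12 Hox genes were higher, now including Hoxa2 (0.26, edgeR adjusted p = 0.043) and Hoxa3 (0.42, edgeR adjusted p = 0.0012).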
